A study of Mus musculus with 2 samples.

Results

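The genes described here encode the enzymes and scaffolds of the conjugation systems that attach ATG12 to ATG5 and LC3 to phosphatidylethanolamine. The members were Atg7, Atg10, Atg3, Atg12, Atg5, Atg16l1, Atg16l2, Atg4b and Atg4c, taken as every probe set whose platform annotation named exactly 1 mouse gene, that gene being a member. This gave 9 genes at 22 probe sets, of 18193 genes at 34945 probe sets with a single gene and 45037 probe sets in all. The cells were primary mouse embryonic fibroblasts (MEFs) of C57BL/6 embryos at embryonic day 13.5, at passage 2, which the study calls young. One RNA sample was of cells transfected with GapmeR Control, a non-targeting locked nucleic acid oligonucleotide, and the other of cells transfected with GapmeR AK156230, an oligonucleotide that makes RNase H cleave the lncRNA AK156230, so both groups carried an oligonucleotide and neither was left untransfected. The arrays are called the control array and the knockdown array here. Each group had 1 array, and no array value below therefore has a replicate array or a p-value. The paper measured some genes separately by RT-qPCR and reports that Ulk2, Atg7 and Atg16l2 fell significantly after silencing. The comparison bears on whether silencing of AK156230 altered the transcripts of the conjugation machinery, in a study of autophagy and senescence.

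Autophagosomes form by growth of a double membrane that is marked with proteins of the ATG8 family, LC3 and GABARAP. ATG4 proteases trim the ATG8 proteins, ATG7 activates both them and ATG12 as an E1 enzyme, ATG3 passes the ATG8 proteins to the lipid and ATG10 passes ATG12 to ATG5. ATG12-ATG5 binds ATG16L1 and this complex acts in the manner of an E3, directing where LC3 is lipidated. Lipidated LC3 is the LC3-II form that is read on western blots as a marker of autophagosomes, and its amount depends on protein conjugation, which transcript levels do not measure.

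Signals are MAS5 values on a linear scale with arbitrary units, and log2 ratios are knockdown over control, so a negative value means a lower signal after silencing. Signals of different probe sets are not comparable with each other. The median signal of all probe sets was 54.80 on the control array and 50.95 on the knockdown array, and the median log2 ratio of all probe sets was -0.066. Scaling both arrays to the same median raised every log2 ratio by 0.11, and no other scaling tried moved the median of all probe sets as far. Of 15 fibroblast markers 14 were at or above the array's median on both arrays. On the knockdown array 7 of the 15 were past 2-fold in the lower direction and none in the higher, against 3.85% and 1.59% of all genes. The 7 were Col3a1, Col5a1, Pdgfra, Pdgfrb, Lum, Prrx1 and Fap. The other 8 lay within 2-fold, and of these Vim, S100a4 and Dcn were near level, with log2 ratios of -0.087, -0.022 and 0.060. The list summed to 43900.9 on the control array and 28965.3 on the knockdown array. No endothelial marker of 6, 3 of 8 keratinocyte and epithelial markers, 2 of 7 skeletal muscle markers and 6 of 8 leukocyte markers were at or above the median on both arrays. The summed signals of these lists were 186.1 and 227.1, 515.4 and 647.2, 962.2 and 1232, and 1341.6 and 1347.6, the control array first in each pair. At 2-fold 1 endothelial, 1 keratinocyte and epithelial, 1 skeletal muscle and 2 leukocyte markers were higher and none was lower. Over all genes 1.59% were higher and 3.85% lower. The skeletal muscle marker past 2-fold was Myf5, which was very dim (5.33 and 11.02), while Acta1 was 1.85-fold higher. In the first 3 lists the sum was higher on the knockdown array mainly through 1 gene each, Kdr (44.54 and 90.91), Krt18 (126.94 and 298.63) and Acta1 (416.88 and 770.32). The level leukocyte sum hides opposite differences. Cd68 (108.03 and 274.59) and Cd14 (95.25 and 225.4) were the 2 higher markers, while Lyz2 read 724.68 and 526.64. The median log2 ratios of the 4 lists were -0.098, 0.044, 0.061 and -0.28, and that of the fibroblast list was -0.99. No marker of any of these lists was listed at 0. The part of these marker differences in the values below was not tested, and in RNA of a whole culture fewer cells of a type cannot be told apart from less RNA per cell.

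Most conjugation genes differed little between the arrays. At a threshold of 2-fold, 3 of the 22 probe sets were lower on the knockdown array, which is 13.6%, and none was higher, against 3.28% of all probe sets lower and 1.45% higher. The 3 probe sets belonged to 2 genes, both probe sets of Atg16l2 and 1 of the 4 of Atg7. The other 19 lay within 2-fold. With each gene taken at its brightest probe set, Atg16l2 alone of the 9 passed 2-fold in the lower direction, against 3.85% of all genes, and no member passed it in the higher direction, against 1.59%. The median log2 ratio was -0.055 over the 22 probe sets and -0.066 over all probe sets. It was 0.065 over the 9 genes at their brightest probe set and -0.074 over all genes. Some of these counts rest on dim probe sets. With 24.33, the 25th percentile of all signals, added to every signal, none of the 22 was lower by 2-fold, against 1.71% of all probe sets at that offset.

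**Figure D1:**
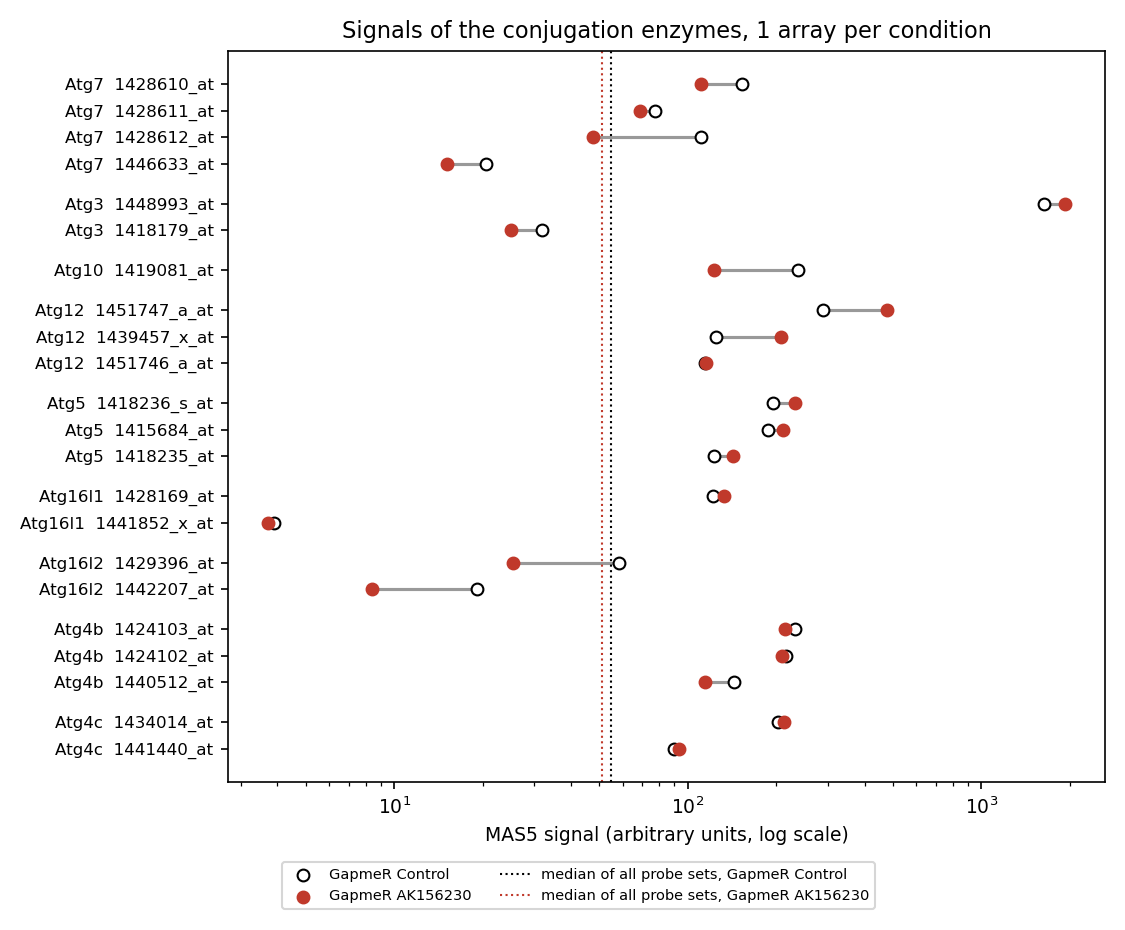
MAS5 signal (arbitrary units, log scale) of each of the 22 probe sets of the 9 conjugation genes, with an open circle for the GapmeR Control array, a filled circle for the GapmeR AK156230 array and dotted lines at the median of all probe sets on each array (54.80 and 50.95). The longest lines run leftward for Atg7 (111.23 to 47.57) and Atg16l2 (58.50 to 25.34 and 19.21 to 8.43), and the circles of Atg4b, Atg4c and Atg16l1 lie close together.

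The E1 enzyme gene Atg7 had 4 probe sets, and all were lower on the knockdown array, by very different amounts. Atg7 lies on chromosome 6 of GRCm38.p6 from 114643127 to 114860604 and spans 217.5 kb. Probe set 1428610_at, its brightest, read 152.57 on the control array and 111.19 on the knockdown array, a log2 ratio of -0.46. At 1428612_at the signals were 111.23 and 47.57, 2.34-fold lower and a log2 ratio of -1.23. At 1428611_at they were 77.39 and 68.74, a log2 ratio of -0.17. These 3 probe sets were designed from the same sequence record, so they share a source and are not independent measurements. The last, 1446633_at, came from another record and was under the median of both arrays, at 20.48 and 15.08, a log2 ratio of -0.44. The log2 ratios of 1428610_at and 1428612_at differ by 0.77, and those of 1428610_at and 1428611_at, the brightest pair, by 0.29. Between the 2 brightest probe sets of a gene the difference had an SD of 0.39 over 5112 genes with at least 2 probe sets that reached the array's median. Atg7 was below 0 at every probe set under each scaling tried, while its 2-fold decrease rested on 1428612_at alone, which was at -0.91 with 24.33 added to every signal.

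Atg10, the E2 enzyme gene of the ATG12 branch, had a lower signal at its only probe set. It lies on chromosome 13 from 90935348 to 91224725 and spans 289.4 kb. This probe set read 237.29 on the control array and 122.92 on the knockdown array, 1.93-fold lower and just inside the 2-fold threshold. Both signals were above the arrays' medians, so the offset moved the log2 ratio only from -0.95 to -0.83. Of all probe sets 3.67% had a lower log2 ratio than Atg10.

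Atg3, the E2 enzyme gene of the LC3 branch, was not lower at its bright probe set. It lies on chromosome 16 from 45158829 to 45188538. The signals were 1638.36 and 1923.43 at 1448993_at, 1.17-fold higher on the knockdown array. A second probe set from the same sequence record, 1418179_at, was under the median of both arrays, at 32 and 25.06, and its log2 ratio was -0.35. The probe sets of Atg3 thus pointed in opposite directions under every scaling tried, with the bright one above 0 and the dim one below it, and neither was past 1.5-fold.

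ATG12 is the ubiquitin-like protein that the cascade attaches to ATG5, and its gene had the highest log2 ratios of the group. Probe set 1451747_a_at of Atg12 read 289.37 on the control array and 478.34 on the knockdown array, 1.65-fold higher. Probe set 1439457_x_at gave 124.48 and 207.17, 1.66-fold higher. The third, 1451746_a_at, was level, at 114.67 and 115.33, although it came from the same sequence record as the first. The identifiers of all 3 end in _a_at or _x_at, the suffixes of probe sets that may match several transcripts of a gene or other genes, so Atg12 had no probe set without such a suffix. At a threshold of 1.5-fold these 2 probe sets of Atg12 were the only ones of the 22 that were higher, 9.09% against 5.49% of all probe sets. At the same threshold 4 were lower, 18.2% against 9.37%, namely those of Atg16l2, Atg10 and 1428612_at of Atg7.

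Atg5, the acceptor of ATG12, was slightly higher at all 3 of its probe sets. It lies on chromosome 10 from 44268322 to 44364299. The signals were 194.39 and 232.26 at 1418236_s_at, 187.88 and 210.24 at 1415684_at, and 123.00 and 142.59 at 1418235_at. The log2 ratios of Atg5 lay between 0.16 and 0.26, closer together than those of any other member with 3 or more probe sets. All 3 came from 1 sequence record, and none was past 1.5-fold.

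The 2 scaffold paralogs differed in direction at their brightest probe sets. ATG16L1 is the scaffold that brings ATG12-ATG5 to the forming membrane, and ATG16L2 is a paralog that also binds ATG12-ATG5 and whose role in autophagy is less clear. Atg16l1 (chromosome 1, 87756007 to 87792428) read 122.15 on the control array and 132.40 on the knockdown array, a log2 ratio of 0.12. Its other probe set, 1441852_x_at, was among the dimmest of the arrays at 3.90 and 3.72 and carries little information. Atg16l2 (chromosome 7, 101286325 to 101302267) read 58.50 and 25.34 at 1429396_at, 2.31-fold lower, and 19.21 and 8.43 at 1442207_at, 2.28-fold lower. These probe sets were designed from different sequence records and their log2 ratios, -1.21 and -1.19, were nearly equal. Both were dim, since only the GapmeR Control signal of the first, at 58.50, was above its array's median. The offset of 24.33 brought their log2 ratios to -0.74 and -0.41. Dim probe sets of a gene also differed more from each other, with an SD of 0.53 between a pair under the array's median against 0.39 for brighter pairs. The pair of Atg16l2 was in neither class, since 1429396_at reached the median on the control array and 1442207_at did not.

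The protease genes were close to level. Atg4b (chromosome 1, 93754905 to 93789606), whose product is the main ATG4 protease for LC3, read 231.44 and 213.64, 215.59 and 209.47, and 143.48 and 114.73 at its 3 probe sets, with log2 ratios from -0.32 to -0.042. Atg4c (chromosome 4, 99189159 to 99297258) read 202.65 and 211.99 and, at a second probe set, 89.73 and 93.25, with log2 ratios of 0.065 and 0.056. The second probe set of Atg4b turned to 0.064 when both arrays were scaled to the same median and to 0.0062 after quantile normalization. In the signals as deposited every probe set was below 0 for 4 genes (Atg7, Atg10, Atg16l2 and Atg4b), above 0 for 3 (Atg12, Atg5 and Atg4c), and on both sides for 2 (Atg3 and Atg16l1). For Atg10 this was its only probe set. Of all 45037 probe sets, 26010 were below 0 and 19002 above it. Atg7, Atg10 and Atg16l2 stayed wholly below 0 under each of the 3 scalings, while Atg4b became mixed with equal medians and after quantile normalization. The offset, added to both signals, cannot change the sign of a ratio and so says nothing on this.

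**Figure D2:**
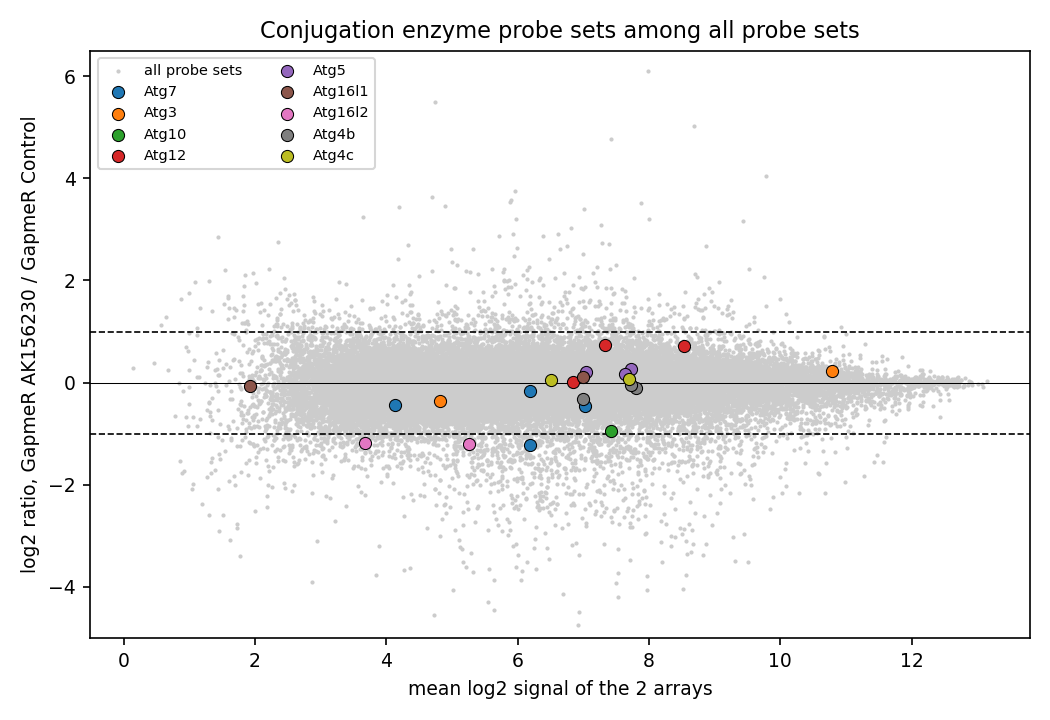
log2 ratio (GapmeR AK156230 array over GapmeR Control array) against the mean log2 signal of the 2 arrays, with every probe set in grey, the probe sets of each conjugation gene in colour and dashed lines at 2-fold. Both probe sets of Atg16l2 and 1 of Atg7 lie under the lower line, Atg10 lies just above it at -0.95, and the highest are those of Atg12 at 0.73.

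Promoter windows are shown for Atg7, Atg10 and Atg16l2, because these were the members below 0 at every probe set under all scalings. That of Atg3, whose brightest probe set was above 0 and whose dim one was below it, is shown as a contrast. A RefSeq window of 300 bases, from 250 before to 50 after an annotated start, was in the table for 7 of the 9 members. CACGTG, the core of the E-box that MYC and TFEB family factors recognise, is printed in capitals and the rest in lower case, 5′ to 3′ on the strand of the gene. The windows are those of Atg7 at chr6:114670846-114671145 on the plus strand, Atg10 at chr13:91223938-91224237 on the minus strand, Atg16l2 at chr7:101302039-101302338 on the minus strand, and Atg3 at chr16:45158579-45158878 on the plus strand, all in GRCm38.p6.
Atg7: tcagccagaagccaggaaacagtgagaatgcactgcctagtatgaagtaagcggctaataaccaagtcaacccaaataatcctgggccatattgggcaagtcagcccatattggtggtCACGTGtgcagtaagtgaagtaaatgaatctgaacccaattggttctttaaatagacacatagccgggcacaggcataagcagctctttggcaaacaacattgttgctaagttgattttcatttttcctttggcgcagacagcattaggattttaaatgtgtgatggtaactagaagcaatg
Atg10: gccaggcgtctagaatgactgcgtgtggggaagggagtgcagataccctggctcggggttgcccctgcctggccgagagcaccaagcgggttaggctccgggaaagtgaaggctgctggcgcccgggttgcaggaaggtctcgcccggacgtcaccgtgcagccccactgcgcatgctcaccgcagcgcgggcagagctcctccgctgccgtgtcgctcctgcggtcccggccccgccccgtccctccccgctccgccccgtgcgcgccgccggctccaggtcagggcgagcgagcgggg
Atg16l2: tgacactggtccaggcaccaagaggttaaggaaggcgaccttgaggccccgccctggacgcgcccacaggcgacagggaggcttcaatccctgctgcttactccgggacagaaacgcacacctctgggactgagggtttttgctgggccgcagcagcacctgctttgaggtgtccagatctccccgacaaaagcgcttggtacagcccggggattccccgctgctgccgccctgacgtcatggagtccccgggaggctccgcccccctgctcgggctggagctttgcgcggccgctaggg
Atg3: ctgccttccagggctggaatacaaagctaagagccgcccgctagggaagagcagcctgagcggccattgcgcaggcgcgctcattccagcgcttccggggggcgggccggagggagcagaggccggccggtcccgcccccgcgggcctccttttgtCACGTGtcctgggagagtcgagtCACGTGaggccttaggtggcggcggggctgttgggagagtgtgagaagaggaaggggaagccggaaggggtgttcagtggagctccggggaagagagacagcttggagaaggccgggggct
The word reads the same on both strands, so 1 search covered both. The window of Atg3 held it at 2 positions, 94 and 71 bases before the start, that of Atg7 held it 132 bases before its start, and those of Atg10 and Atg16l2 did not hold it. The start used for Atg7 lies 27969 bases inside the gene, so its window is that of an internal start. Of the 8 windows of members, 3 held the word (Atg7, Atg3 and Atg5), and so did 7.15% of all 32851 windows. Among these 3 genes the brightest probe set of Atg7 was below 0 and those of Atg3 and Atg5 were above it. A match of letters is not a binding site, and the arrays hold no measure of binding.

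The members differed widely in genomic span, and on these arrays long genes were lower more often than short ones. Of genes whose signal reached the array's median, 25.4% of the 779 spanning over 160 kb were lower by 2-fold or more, with a median log2 ratio of -0.43 and a middle 50% from -1.01 to -0.15. The 2 longest members fall in this class, Atg10 at 289.4 kb and Atg7 at 217.5 kb. Their values of -0.95 and -0.46 lie inside the middle 50% of the class, although 1428612_at of Atg7 at -1.23 lies below it. Atg4c at 108.1 kb and Atg5 at 96.0 kb are in the class of 80 to 160 kb, whose median was -0.18 and whose upper quartile was 0.073. Atg4c at 0.065 was just under that quartile and Atg5 at 0.26 above it. Atg16l2 spans only 15.9 kb, and in its class of 10 to 20 kb 2.19% of 2423 genes were lower by 2-fold or more, with a lower quartile of -0.24. Atg12, the shortest member at 9.3 kb, was above the upper quartile of 0.21 of genes under 10 kb. Atg3, Atg16l1 and Atg4b, at 29.7, 36.4 and 34.7 kb, had values from -0.12 to 0.23 in a class with a median of -0.013. The part of genomic span in the values of Atg7 and Atg10 was not tested.

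**Figure D3:**
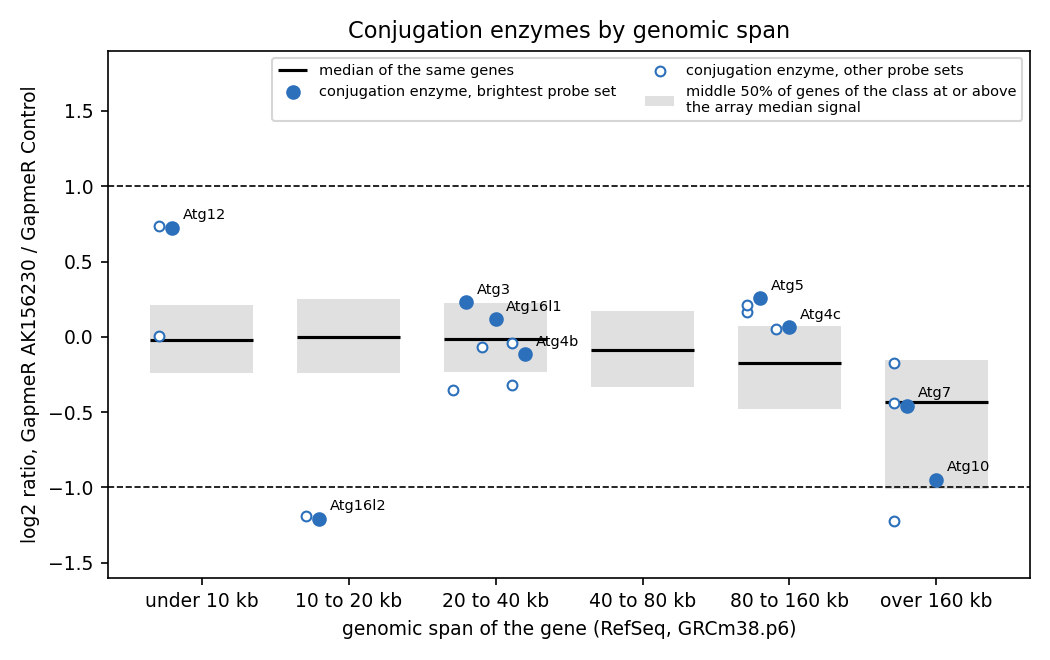
log2 ratio (GapmeR AK156230 array over GapmeR Control array) for the 9 conjugation genes by class of genomic span (filled, brightest probe set; open, other probe sets), over grey bars for the middle 50% and black lines for the median of genes of the class whose signal reached the array's median. Atg7 and Atg10 lie within the bar of genes over 160 kb, whereas Atg16l2 lies far below the bar of genes of 10 to 20 kb.

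The ATG8 proteins on which the enzymes act were all within 1.5-fold at their brightest probe sets. Map1lc3b, which encodes LC3B, read 1895.67 on the control array and 1941.71 on the knockdown array. Over its 4 probe sets the log2 ratios of Map1lc3b ran from -0.35 to 0.10. Map1lc3a read 1633.19 and 1550.96. Gabarap was at 3365.25 and 2886.14 and Gabarapl1 at 1126.08 and 900.78, log2 ratios of -0.22 and -0.32. Gabarapl2 stood highest, at 628.02 and 901.38, a log2 ratio of 0.52, with 0.71 at its other probe set. Of the remaining ATG4 protease genes, Atg4a was at 278.97 and 210.35, a log2 ratio of -0.41, and Atg4d at 41.90 and 61.51, a log2 ratio of 0.55 that was -0.28 at its other, dimmer probe set. Atg4a spans 210.4 kb, in the same class as Atg7.

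Of 38 measured genes outside the conjugation enzymes that act in autophagy (the ATG8 proteins, Atg4a and Atg4d, the WIPI family with Tecpr1 and Rb1cc1, and other stages), 2 passed 2-fold in the lower direction and none in the higher, against 3.85% and 1.59% of all genes. The lower genes were Uvrag, which encodes a partner of Beclin 1 (982.2 and 282.12, a log2 ratio of -1.80), and the kinase gene Ulk2 (233.53 and 101.14, -1.21). Uvrag had 1 probe set and spans 254.4 kb, in the class over 160 kb where 25.4% of genes were lower by 2-fold or more. Ulk2 spans 79.7 kb, in the class of 40 to 80 kb where 5.12% were. The part of genomic span in these values was not tested. At 1.5-fold Atg14 and Atg101 were higher, against 5.48% of all genes, and no further gene was lower, against 9.69%. Atg14, which encodes the subunit that directs the class III PI3-kinase complex to autophagosome formation, read 99.41 and 171.12, and Atg101, a subunit of the ULK complex, read 93.17 and 140.94. WIPI2 and RB1CC1 bind ATG16L1, and TECPR1 binds ATG12-ATG5. Of the WIPI family genes with Tecpr1 and Rb1cc1, 5 of 6 had log2 ratios above 0 at their brightest probe sets. Over all genes this held for 7487 of 18193. The median of the 6 was 0.30, with values from -0.23 to 0.57, none past 1.5-fold. Other probe sets went further, up to 0.96 for Wipi2 and 0.87 for Rb1cc1 and down to -0.52 for Wipi1. Sqstm1, which encodes the receptor p62 and was named after its value was seen, was level at its brightest probe set, at 1910.47 and 1896.42. Its other probe set had a log2 ratio of -0.36.

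Other ubiquitin-like proteins, such as SUMO, NEDD8, UFM1 and ISG15, are attached by E1, E2 and E3 enzymes of their own. Of 12 measured genes for such enzymes, Ube2l6, the E2 enzyme gene for ISG15, was 2.13-fold higher (25.10 and 53.55, and a log2 ratio of 0.66 with 24.33 added to every signal), against 1.59% of all genes, and none was lower by 2-fold, against 3.85%. At 1.5-fold Ufl1, the E3 enzyme gene for UFM1, was lower, at 83.62 and 52.45, against 9.69% of all genes. Their median log2 ratio was 0.035, against 0.065 for the 9 conjugation genes and -0.074 for all genes.

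**Figure D4:**
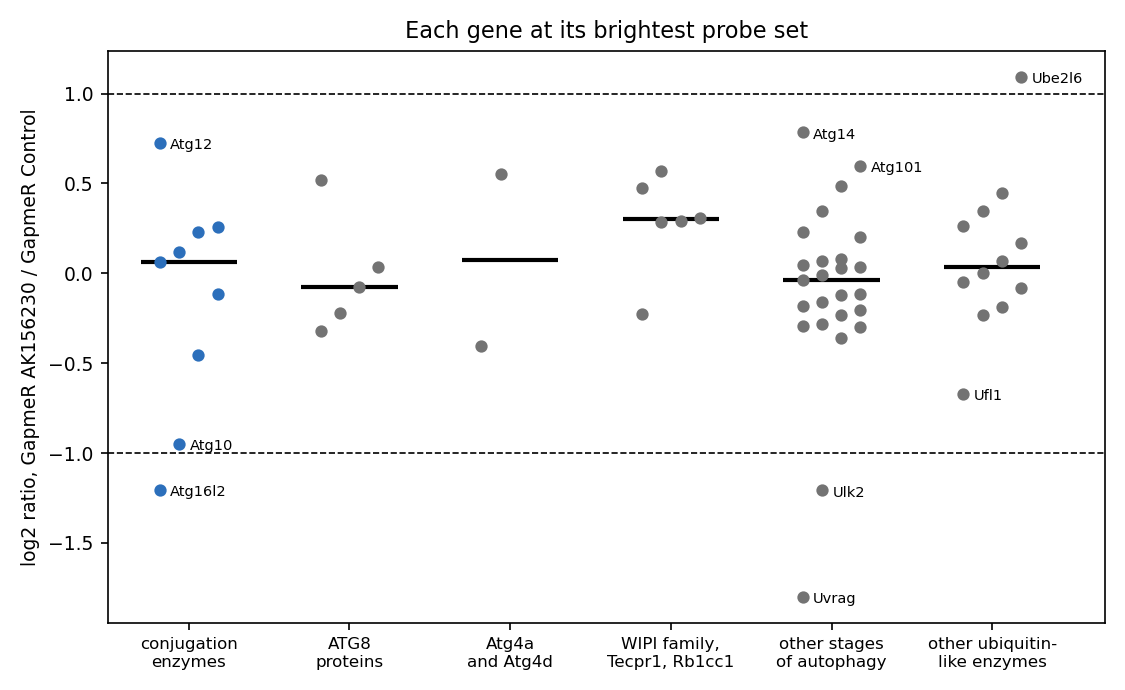
log2 ratio (GapmeR AK156230 array over GapmeR Control array) for each gene at its brightest probe set, with the conjugation enzymes in blue, other groups in grey, a black bar at each group's median and dashed lines at 2-fold. Atg16l2, Ulk2 and Uvrag lie below the lower line, Ube2l6 lies above the upper one, and the medians lie between -0.074 and 0.30.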

How the data were processed

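Total RNA of the MEFs was labelled and hybridized to Affymetrix arrays by the authors. The deposited intensity values are MAS5 signals on a linear scale, which the authors scaled for each array. Neither the MAS5 version nor the scaling target is given in the sources used here, and the table holds no detection calls. The methods name a porcine array, while the labels give mouse RNA and the annotation of these identifiers is that of a mouse array, which was used. Of 45037 probe sets, 34945 had 1 gene symbol, 932 had several and 9160 were not listed, and 34741 symbols were updated through the Entrez ID. Spans and promoter windows came from RefSeq for GRCm38.p6.

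The log2 ratio of the knockdown over the control signal was taken with no offset, and 2-fold was the threshold. The test named in the methods (SAM) needs replicate arrays, so no test was run with 1 array per group, and the number of arrays limits the precision. The brightest probe set of a gene is that with the highest mean log2 signal. The text names all members at every probe set, the ATG8 and remaining ATG4 genes, and genes of the other autophagy and ubiquitin-like lists past 2-fold. Atg14, Atg101, Ufl1, Sqstm1, Wipi1, Wipi2, Rb1cc1 and all cell type markers named in the text were added after their values were seen. The members and lists were chosen with earlier results of these data known. A few listed genes are not reported here. The alternatives were 3 scalings, an offset, 2 minimum signals, a threshold of 1.5-fold, leaving out probe sets with a suffix, and other summaries of a gene. Counting and scaling were tested on simulated data. Python 3.11.15, numpy 2.4.6, pandas 2.3.3, statsmodels 0.14.6 and matplotlib 3.10.9 were used.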

Additional observations from a re-analysis of the deposited data

How the results depend on the processing

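The count of conjugation probe sets lower by 2-fold or more was 3 as deposited and after each of the 3 scalings. It was 0 with 24.33 added to every signal and 1 when genes were counted at their brightest probe set. It was 2 of the 18 probe sets at or above the median signal of the brighter array, against 4.32% of all such probe sets. At or above the 25th percentile it was 2 of 19, against 3.4%. Probe set 1442207_at of Atg16l2 fell under both minimum signals. The offset moved the log2 ratios of 1428612_at of Atg7 to -0.91 and of the probe sets of Atg16l2 to -0.74 and -0.41. The count higher was 0 at 2-fold and 2 at 1.5-fold, and the count of other autophagy genes higher was likewise 2 at 1.5-fold. The median log2 ratio of the 22 probe sets ranged from -0.17 without probe sets whose identifiers carry a suffix (_x_at, _s_at or _a_at) to 0.065 over genes at their brightest probe set, so its sign is not settled. The count of other autophagy genes lower by 2-fold was 2 under every alternative. Of all changed probe sets on the arrays 69.3% were lower as deposited and 57.2% with equal medians, and 3 of 3 changed conjugation probe sets were lower under both. No paired analysis was possible because each group had 1 array, and for the same reason no array could be left out. Dim signals limit the ratios of Atg16l2 and of the dim probe sets of Atg3, Atg7 and Atg16l1.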
